A study of Mus musculus with 5 samples.

Results

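The genes followed here encode enzymes and membrane proteins of the lysosome, in 38 genes chosen by name from the 55335 gene IDs of the count table. They are 10 cathepsins, 11 glycosidases, 4 sulfatases and 13 further genes, namely the inhibitor Cst3, the hydrolases Lipa, Tpp1 and Ppt1, the activator and carrier genes Psap and Npc2, the membrane proteins Lamp1, Lamp2, Scarb2, Npc1 and Mcoln1, the tagging enzyme Gnptab and the regulator Tfeb. All 38 were present and passed the filter on low counts, with at least 260 counts in every library.

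The lysosome is the acidic organelle in which cells break down proteins, glycans and lipids, and fibroblasts also use it to digest collagen and proteoglycans taken up from the matrix. Most of its enzymes are tagged with mannose 6-phosphate in the Golgi, travel to it on receptors, and act at the low pH made by a proton pump in its membrane. Many of their genes carry an E-box, with the core CACGTG, in the promoter, to which TFEB and its relatives can bind.

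The cells were primary fibroblasts grown from mouse lung, given vehicle (2 libraries, the controls) or the cytokine TGF-β1 (3 libraries) at 5 ng/mL over 24 h. TGF-β1 signals through SMAD factors and is widely used to drive fibroblasts towards matrix-producing myofibroblasts. The series calls the libraries independent biological replicates; strain, age, passage and the number of animals were not given in the sources used here, so the p-values reflect only how far these 5 libraries differ, which may be technical. PolyA RNA was sequenced to 34283288 to 43163967 counts per library. Levels are CPM (counts scaled to library size, with TMM factors), means are given ± SD (n = 2 controls and n = 3 treated), and each log2 fold change sets TGF-β1 against control, with its standard error (SE). Adjusted p-values are from edgeR's quasi-likelihood test over all 16380 genes tested, with a threshold of 0.05.

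The treatment left its mark in all 3 libraries: Ccn2, a TGF-β target, rose from a mean of 1396 ± 56.9 CPM to one of 3589.99 ± 167 (log2 fold change 1.36), while Acta2, smooth muscle actin, was high in the controls already and fell from a mean of 5970.2 ± 197 CPM to one of 5485 ± 34.03 (log2 fold change −0.12). Of 10 fibroblast markers, 5 rose and 5 fell (50% each, against 21.3% and 23.2% of all genes tested). By 1.5-fold or more, 1 rose and 4 fell, and the log2 fold changes of the 10 ran from −2.23 to 0.69. Fn1, fibronectin and the most abundant, rose slightly (19284 to 20378 CPM over the 5 libraries, log2 fold change 0.05), and Lum was under 1 CPM in every library. TGF-β1 replicate 3 stood somewhat apart from replicates 1 and 2, with chi-square statistics of 8.47 and 8.41 per degree of freedom against 4.06 between those 2.

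Markers of other cells were also present. Macrophages are rich in lysosomes, and macrophage and leukocyte transcripts summed to 3307 to 3376 CPM in the controls and 2287 to 2302 CPM with TGF-β1 over 20 markers, and none of the 20 was at 0. The mesothelial list fell in all 10 of its markers, from sums of 1537 to 1628 CPM to sums of 206 to 234 CPM, with Upk1b the most abundant. The other lists were led by Krt18 (epithelial, sums of 80.7 to 91.0 CPM, with 5 of 10 markers at 0), Egfl7 (endothelial, sums of 6.44 to 10.9 CPM) and Des (smooth muscle and pericyte, sums of 2326 to 2874 CPM). In such bulk RNA, fewer cells of a type and less RNA per cell cannot be told apart.

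Of the 38 genes, 25 were lower with TGF-β1, 4 (3 cathepsins and 1 glycosidase) were higher and 9 did not pass. Over all genes tested, 23.2% were lower and 21.3% were higher; among the 9439 genes of at least 10 CPM, a range that holds all 38, the shares were 24.6% and 31.2%. Scaled by library totals alone, the split over all genes moved from 3488 higher and 3799 lower to 2325 and 4921, and that of the 38 to 4 higher and 30 lower. Called in either direction in the main scaling were 44.5% of all and 55.9% of the more abundant genes. The median log2 fold change of the 38 was −0.24, with quartiles of −0.36 and −0.05, against a median of 0.00 over all genes tested. The decreases were mostly small: 5 genes, Sgsh, Tfeb, Ctso, Ctsk and Cst3, were lower by 1.5-fold or more, which is 13.2% of the 38 and near the 12.9% over all genes tested (8.72% among those of at least 10 CPM), and 0 were higher by that much (5.92% over all genes tested, 5.41% at 10 CPM or more), Ctsc being nearest at 1.49-fold. The controls and the TGF-β1 libraries did not overlap in 35 of the 38, the exceptions being Ctsf, Man2b1 and Mcoln1. Such separation was common, at 64.6% of all genes tested and 73.2% of those of at least 10 CPM.

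**Figure D1:**
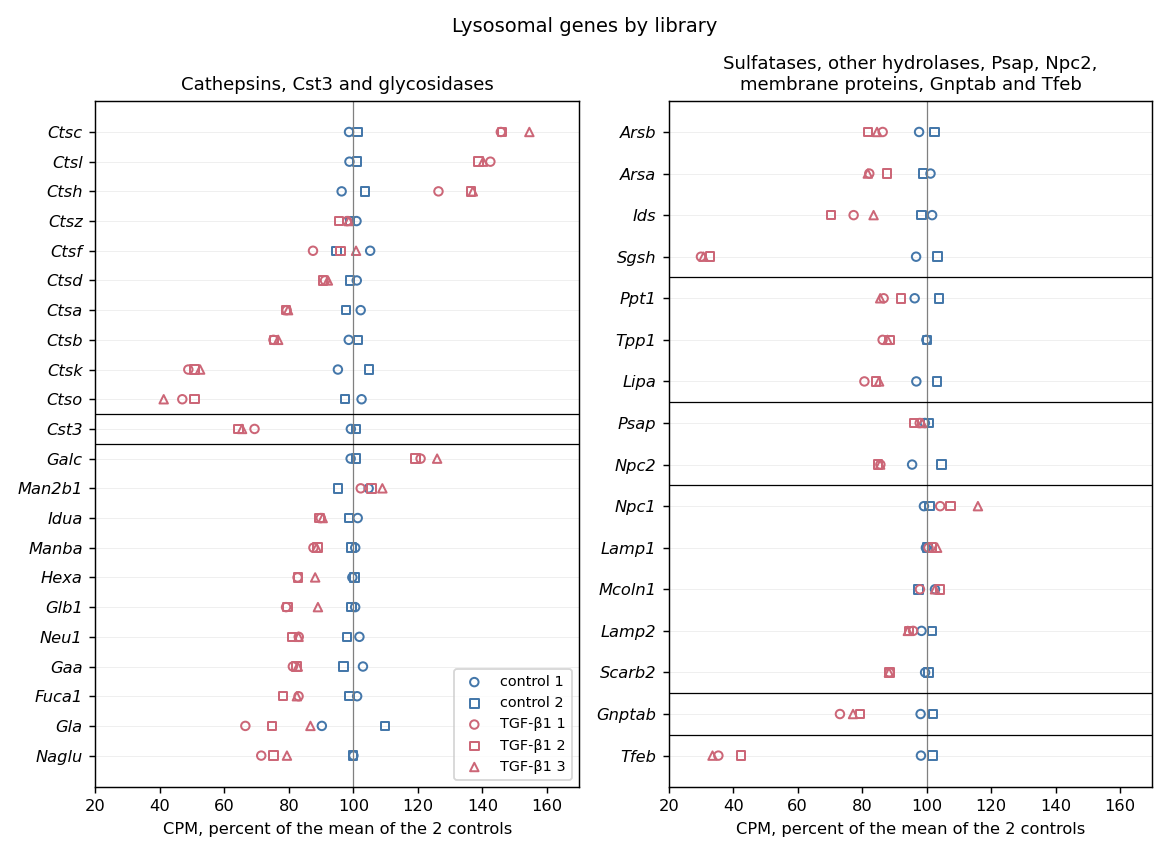
CPM of each of the 38 genes in each library, as a percent of the mean of the 2 controls (blue: controls, red: TGF-β1; circles, squares and triangles are replicates 1, 2 and 3), with lines between roles. Most red points lie to the left of 100, those of Ctsc, Ctsl, Ctsh, Galc, Npc1 and Lamp1 lie to the right of both controls (Lamp1 only just), and those of Sgsh and Tfeb lie farthest left.

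Promoter sequences are shown first, since the E-box is the element these genes are known for. RefSeq promoter windows of 300 bases (250 before the start site to 50 after it, GRCm38.p6) were at hand for 35 of the 38, with 1 window each but for Ctsa and Psap (2) and Tfeb (3). The core CACGTG, which reads the same on both strands, was in the windows of 12 of the 35 genes (34.3%), against 8.09% of all genes in the RefSeq table and 11.4% of the genes tested here. The longer TCACGTG, on either strand and always overlapping a core, was in those of 10 (28.6%), against 4.29% and 6.71%. The last 110 bases before the start site are printed below for the 8 genes with the longer motif in that stretch, so that sulfatases, glycosidases, cathepsins and membrane proteins can be set side by side, followed by Ctsk and Ctso, which fell strongly. Capitals mark each CACGTG, and all run 5′ to 3′ on the gene's own strand.
Sgsh: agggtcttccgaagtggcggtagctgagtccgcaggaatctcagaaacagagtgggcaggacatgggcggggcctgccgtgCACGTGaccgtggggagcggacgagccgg
Naglu: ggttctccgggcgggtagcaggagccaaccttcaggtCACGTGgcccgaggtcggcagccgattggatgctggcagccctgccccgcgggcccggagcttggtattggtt
Glb1: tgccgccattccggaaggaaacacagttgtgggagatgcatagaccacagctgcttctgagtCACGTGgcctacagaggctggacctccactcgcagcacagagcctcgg
Arsa: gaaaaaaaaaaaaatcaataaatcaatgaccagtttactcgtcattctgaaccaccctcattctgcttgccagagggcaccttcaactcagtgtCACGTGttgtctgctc
Ctsa: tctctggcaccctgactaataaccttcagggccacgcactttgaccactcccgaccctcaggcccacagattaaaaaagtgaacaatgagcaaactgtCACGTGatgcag
Ctsd: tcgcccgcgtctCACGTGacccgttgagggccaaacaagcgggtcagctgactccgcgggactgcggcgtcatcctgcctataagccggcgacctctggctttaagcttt
Lamp1: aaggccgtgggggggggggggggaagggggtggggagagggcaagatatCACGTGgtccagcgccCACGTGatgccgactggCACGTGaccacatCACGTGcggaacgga
Mcoln1: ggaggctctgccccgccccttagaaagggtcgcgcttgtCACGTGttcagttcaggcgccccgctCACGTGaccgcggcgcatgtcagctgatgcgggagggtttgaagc
Ctsk: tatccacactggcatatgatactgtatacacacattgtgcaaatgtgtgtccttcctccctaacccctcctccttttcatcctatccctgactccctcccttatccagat
Ctso: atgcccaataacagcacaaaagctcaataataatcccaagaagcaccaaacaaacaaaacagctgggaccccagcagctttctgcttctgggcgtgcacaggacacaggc

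The stretches lie at chr11:119355511-119355620 (minus strand) for Sgsh, chr11:101069984-101070093 (plus strand) for Naglu, chr9:114400968-114401077 (plus strand) for Glb1, chr15:89477425-89477534 (minus strand) for Arsa, chr2:164833663-164833772 (plus strand) for Ctsa, chr7:142387828-142387937 (minus strand) for Ctsd, chr8:13159051-13159160 (plus strand) for Lamp1, chr8:3500409-3500518 (plus strand) for Mcoln1, chr3:95499100-95499209 (plus strand) for Ctsk and chr3:81932491-81932600 (plus strand) for Ctso. Lamp1 held 4 cores in these 110 bases and Mcoln1 held 2, and neither passed the test: Lamp1 had a log2 fold change of 0.03 and Mcoln1 one of 0.02. The stretch of Ctsa precedes a start inside the annotated gene, and the window at the gene's 5′ end (chr2:164832622-164832921) held no core. The stretch of Ctsd also lies inside its gene as annotated by GENCODE. Those of Sgsh, Naglu and Mcoln1 run partly into theirs, and those of Glb1 and Arsa barely so. Sgsh held 1 core and had the largest decrease of all 38. Of the 12 genes with a core in the window, 8 were lower, 1 was higher and 3 did not pass, with a median log2 fold change of −0.26. Of the 23 without, 16 were lower, 2 were higher and 5 did not pass, with a median of −0.23. No core was found in the windows of Ctsk and Ctso or in any of the 3 windows of Tfeb, which says only that these letters are not there.

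The cathepsins, the main lysosomal proteases, split in both directions. Of the 10, 3 rose (Ctsc, Ctsl and Ctsh), 5 fell (Ctso, Ctsk, Ctsb, Ctsa and Ctsd) and 2 (Ctsf and Ctsz) did not pass. The share that rose, 30%, was near the 31.2% among all genes of at least 10 CPM. The share that fell was 50%, against 24.6% among those genes. Their log2 fold changes ran from −1.11 to 0.57, with a median of −0.10 and an SD over the 10 genes of 0.575.

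Ctsc encodes cathepsin C, a dipeptidyl peptidase that activates granule proteases in leukocytes (ENSMUSG00000030560, chr7:88278085-88310888 of GRCm38). It had 126 and 129 CPM in the controls and 186, 186 and 197 CPM with TGF-β1 (log2 fold change 0.57, SE 0.040, adjusted p = 3.23e-06). Every TGF-β1 library was thus above both controls, replicate 3 the highest. Ctsl encodes cathepsin L, a cysteine endopeptidase that acts on proteins taken up into the cell and on heparanase (ENSMUSG00000021477, chr13:64359337-64370890). It had 416 and 426 CPM in the controls and 599, 584 and 589.8 CPM with TGF-β1 (log2 fold change 0.49, SE 0.026, adjusted p = 5.28e-07), with a gap between the groups far wider than the spread within either. Ctsh encodes cathepsin H, an aminopeptidase that also takes part in maturing surfactant proteins in lung epithelium. It had 36.5 and 39.2 CPM in the controls and 47.9, 51.7 and 51.9 CPM with TGF-β1 (log2 fold change 0.41, SE 0.060, adjusted p = 4.38e-04), again without overlap.

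Ctsk and Ctso fell the most. Ctsk encodes cathepsin K, the protease best known for cutting triple-helical collagen in osteoclasts and also made by lung fibroblasts (ENSMUSG00000028111, chr3:95499256-95509362). It had 46.1 and 50.8 CPM in the controls and 23.7, 24.6 and 25.4 CPM with TGF-β1 (log2 fold change −0.98, SE 0.064, adjusted p = 1.99e-06), so that its level was 50.7% of the control level in the fit. Ctso encodes cathepsin O, a cysteine protease with few known substrates (ENSMUSG00000028015, chr3:81932601-81956725). It had 16.99 and 16.1 CPM in the controls and 7.78, 8.40 and 6.83 CPM with TGF-β1 (log2 fold change −1.11, SE 0.110, adjusted p = 3.59e-05), a 2.16-fold decrease; per kb of transcript it was the lowest of the 38 genes in both groups.

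The other cathepsins that fell did so by less. Ctsb, encoding cathepsin B (ENSMUSG00000021939, chr14:63122462-63145923), had 1319 and 1357 CPM in the controls and 1006, 1009 and 1026 CPM with TGF-β1 (log2 fold change −0.40, SE 0.022, adjusted p = 7.09e-07). Ctsd, the aspartic protease cathepsin D and the most abundant of the 38, had 1721 and 1684 CPM in the controls and 1553, 1542 and 1568 CPM with TGF-β1 (log2 fold change −0.13, SE 0.020, adjusted p = 5.84e-04). The level of Ctsd with TGF-β1 was 91.3% of the control level, a small difference between groups that did not overlap. Ctsa, a serine carboxypeptidase that also protects β-galactosidase and neuraminidase 1 in a complex, had 278 and 265 CPM in the controls and 215, 215 and 216 CPM with TGF-β1 (log2 fold change −0.33, SE 0.032, adjusted p = 2.72e-05). The remaining cysteine cathepsins of the 38 genes had no call: Ctsz had 184 and 181 CPM in the controls and 179, 174 and 180.1 CPM with TGF-β1 (log2 fold change −0.04, adjusted p = 0.395), and Ctsf had 32.02 and 28.8 CPM in the controls and 26.6, 29.2 and 30.7 CPM with TGF-β1 (log2 fold change −0.08, adjusted p = 0.473), where the groups overlap.

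The mix of transcripts among the 8 cysteine cathepsins of the 38 genes (Ctsb, Ctsc, Ctsf, Ctsh, Ctsk, Ctsl, Ctso and Ctsz) therefore changed. To compare levels between genes, CPM was divided by the length of 1 coding transcript per gene (1971 bases for Ctsl and 4743 for Ctsb), so the order of genes depends on that choice of transcript. Per kb, Ctsb had 282 ± 5.69 (n = 2) and 214 ± 2.25 CPM per kb (n = 3) in controls and with TGF-β1, and Ctsl had 213 ± 3.64 (n = 2) and 299.9 ± 3.90 CPM per kb (n = 3). The ratio of Ctsl to Ctsb per kb was 0.758 and 0.755 in the controls and 1.43, 1.39 and 1.38 with TGF-β1. This ratio rose 1.85-fold, a change that does not depend on the lengths. Its exact two-sided permutation p was 0.1, the smallest that 2 against 3 libraries can give. Ctsl rose and Ctsb fell without overlap, so this p adds no support to their own calls. Of the summed level per kb of these 8, which leaves out Ctss and Ctsw, Ctsl made up 28.4% and 28.5% in the controls and 39.2%, 38.5% and 38.1% with TGF-β1. Ctsb went from 37.5% and 37.8% to 27.3%, 27.6% and 27.5%. The share of Ctsk went from 4.12% and 4.44% to 2.02%, 2.11% and 2.14%, and that of Ctsc from 6.81% and 6.86% to 9.62%, 9.71% and 10.1%. Summed over the 10 cathepsins of the 38 genes, the level was 4174 and 4177 CPM in the controls and 3845, 3825 and 3892 CPM with TGF-β1.

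**Figure D2:**
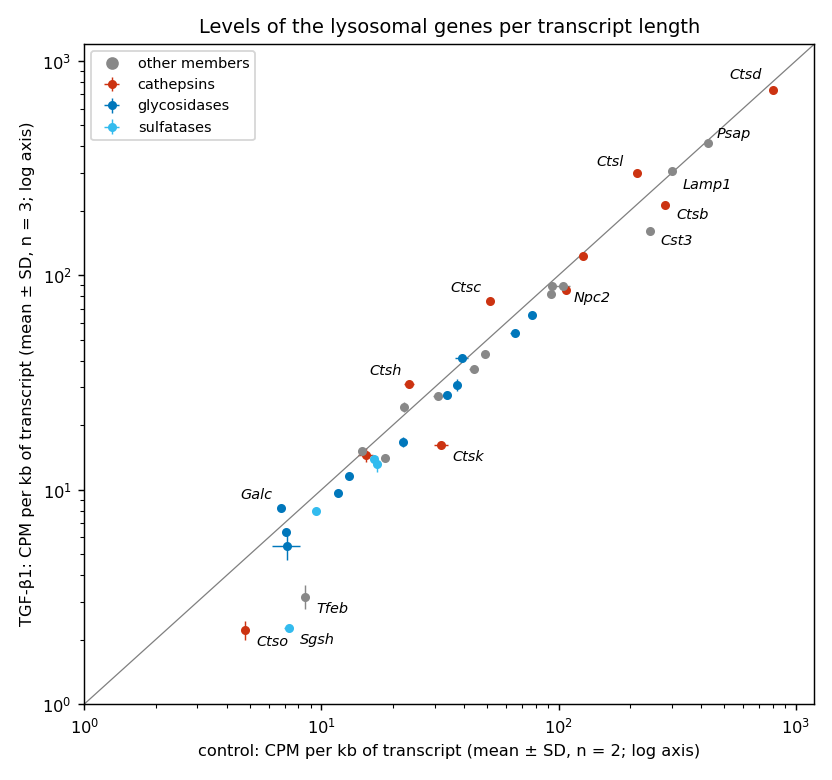
CPM per kb of transcript for the 38 genes in the controls (mean ± SD, n = 2) against TGF-β1 (mean ± SD, n = 3), on log axes, with the line of equal level; red points are cathepsins, dark blue glycosidases, light blue sulfatases and grey the other genes. Ctsc, Ctsl, Ctsh and Galc lie above the line, while Ctso, Sgsh, Tfeb and Ctsk lie farthest below it.

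Cystatin C, the secreted inhibitor of cysteine cathepsins, fell as well. Its gene Cst3 (ENSMUSG00000027447, chr2:148871722-148875692) had 207 and 211 CPM in the controls and 145, 135 and 137 CPM with TGF-β1 (log2 fold change −0.59, SE 0.040, adjusted p = 2.58e-06), without overlap. Per kb, Cst3 stood at 1.14 and 1.13 times Ctsl in the controls and at 0.555, 0.529 and 0.532 times Ctsl with TGF-β1. The exact two-sided permutation p was 0.1 for this ratio too. It again adds no support, since Cst3 fell and Ctsl rose without overlap. Of a list of 4 other protease inhibitors, the cystatin gene Cstb did not pass, and Cst6 and Cst7 were too low to test. Serpinb6a, a serpin known to inhibit serine proteases, was just past the threshold, from a mean of 186 ± 2.07 CPM to one of 197 ± 1.81 (log2 fold change 0.09, adjusted p = 0.0499).

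Enzymes that strip sugars and sulfates from glycans were mostly lower. Of 15 glycosidases and sulfatases, 12 fell, 1 (Galc) rose and 2 (Man2b1 and Idua) did not pass. That is 80% lower and 6.67% higher, against 24.6% and 31.2% of all genes of at least 10 CPM. Their median log2 fold change was −0.28, with quartiles of −0.34 and −0.21. For the 10 cathepsins the quartiles were −0.38 and 0.30. The median of the cathepsins was 0.17 above that of the glycan-degrading enzymes. Measured library by library against the mean of the controls, this gap in median log2 CPM was 0.11, 0.19 and 0.17 in the TGF-β1 libraries and −0.01 and 0.01 in the controls. The control values mirror each other around 0 because each gene was set against the mean of those same 2 controls, so they are no separate baseline. Genes are not replicates and the lists were drawn up with earlier results known, so no test was made of this gap.

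Sgsh had the largest decrease of all 38 genes. It encodes the sulfamidase that removes N-linked sulfate from heparan sulfate, the enzyme missing in Sanfilippo syndrome type A (ENSMUSG00000005043, chr11:119343425-119355536). Sgsh had 30.7 and 32.8 CPM in the controls and 9.52, 10.4 and 9.77 CPM with TGF-β1 (log2 fold change −1.68, SE 0.078, adjusted p = 2.07e-07), a 3.21-fold decrease, with all 3 TGF-β1 libraries far below both controls. Its exons share 955 bases with Card14 on the other strand, a gene counted at 0 in all 5 libraries. Naglu, Ids and Idua act on heparan sulfate too, and their changes were smaller. Naglu, the α-N-acetylglucosaminidase, had 56.6 and 56.6 CPM in the controls and 40.4, 42.6 and 44.9 CPM with TGF-β1 (log2 fold change −0.41, SE 0.056, adjusted p = 3.15e-04). Ids, the iduronate sulfatase, had 86.7 and 83.8 CPM in the controls and 65.9, 60.00 and 71.2 CPM with TGF-β1 (log2 fold change −0.38, SE 0.067, adjusted p = 0.00156), with replicate 3 nearest to the controls. Idua, the iduronidase, had 25.3 and 24.7 CPM in the controls and 22.5, 22.4 and 22.6 CPM with TGF-β1 (log2 fold change −0.15, adjusted p = 0.0809), which did not pass.

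The other sulfatases were lower by similar amounts. Arsa, which desulfates the myelin lipid sulfatide, had 58.8 and 57.4 CPM in the controls and 47.8, 50.98 and 47.5 CPM with TGF-β1 (log2 fold change −0.25, adjusted p = 0.00337). Arsb, which acts on dermatan and chondroitin sulfate, had 37.3 and 39.1 CPM in the controls and 33.01, 31.3 and 32.3 CPM with TGF-β1 (log2 fold change −0.25, adjusted p = 0.00591). Neither overlapped between groups, but the call of Arsb was lost without control 2 (adjusted p = 0.0632). All 4 sulfatases were therefore lower, Sgsh by far the most.

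Among glycosidases, Galc was the one that rose. It encodes galactosylceramidase, which degrades myelin galactolipids, and had 25.6 and 25.99 CPM in the controls and 31.1, 30.7 and 32.5 CPM with TGF-β1 (log2 fold change 0.29, SE 0.060, adjusted p = 0.00381). The glycosidases that fell did so by log2 fold changes between −0.41 and −0.18. Gaa, the acid α-glucosidase that digests glycogen, was the most abundant of them in CPM, with 244 and 229.9 CPM in the controls and 193, 195 and 196 CPM with TGF-β1 (log2 fold change −0.28, adjusted p = 1.56e-04). Hexa, a β-hexosaminidase subunit, had 153 and 154 CPM in the controls and 127, 127 and 136 CPM with TGF-β1 (log2 fold change −0.24, adjusted p = 0.00103). Both had every TGF-β1 library below both controls.

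Glb1, the β-galactosidase whose activity is used to stain senescent cells, had 90.2 and 89.1 CPM in the controls and 70.95, 71.4 and 79.8 CPM with TGF-β1 (log2 fold change −0.28, adjusted p = 0.00369), replicate 3 again nearest to the controls. Fuca1, an α-fucosidase, had 86.6 and 84.6 CPM in the controls and 71.1, 66.9 and 70.6 CPM with TGF-β1 (log2 fold change −0.30, adjusted p = 6.35e-04). Neu1, the lysosomal sialidase, had 29.6 and 28.5 CPM in the controls and 24.1, 23.5 and 24.1 CPM with TGF-β1 (log2 fold change −0.28, adjusted p = 0.00483). These levels came to 82.6%, 81.2% and 82.4% of the control level in the fit.

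Gla, the α-galactosidase that is deficient in Fabry disease, had 20.5 and 24.9 CPM in the controls and 15.1, 16.99 and 19.7 CPM with TGF-β1 (log2 fold change −0.40, adjusted p = 0.025). Replicate 3 came close to control 1, and the call was lost without control 2 (log2 fold change −0.25, adjusted p = 0.255), without TGF-β1 replicate 1 (adjusted p = 0.0665) or 2 (adjusted p = 0.0722), and when low counts were left unfiltered (adjusted p = 0.0661). Without control 1 the log2 fold change of Gla was −0.53 (adjusted p = 0.0285). Manba, the β-mannosidase, had 48.3 and 47.7 CPM in the controls and 42.1, 42.7 and 42.6 CPM with TGF-β1 (log2 fold change −0.18, adjusted p = 0.0135), a call lost without either control (adjusted p = 0.0806 and 0.0595) or TGF-β1 replicate 1 (adjusted p = 0.0518). Man2b1, the α-mannosidase, had 157 and 142 CPM in the controls and 153, 158 and 163 CPM with TGF-β1 (log2 fold change 0.08, adjusted p = 0.217), where control 1 lies inside the range of the treated libraries.

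**Figure D3:**
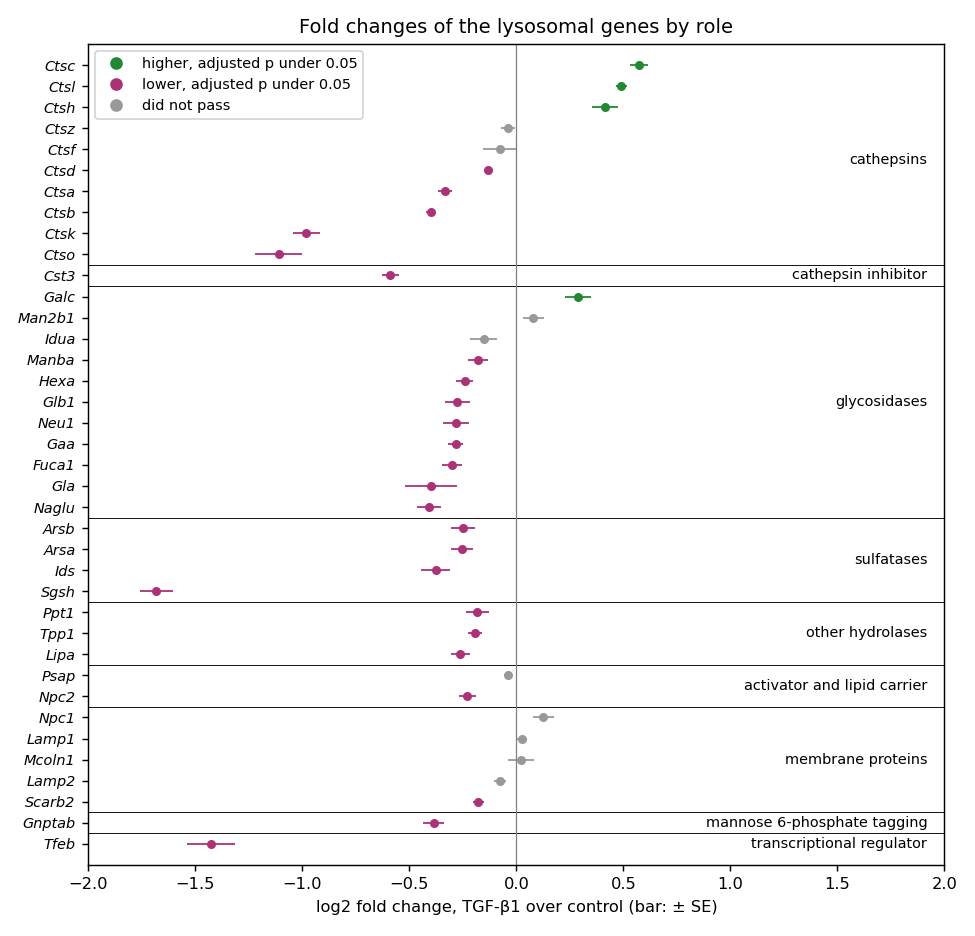
Log2 fold change, TGF-β1 over control, of the 38 genes by role (points, with bars of ± SE; green higher, purple lower, grey not past an adjusted p of 0.05 in edgeR's test). The cathepsins spread from −1.11 to 0.57. The glycosidases and the sulfatases other than Sgsh lie between −0.41 and 0.29, and Sgsh lies at −1.68, below every cathepsin.

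The 3 remaining hydrolases all fell slightly. Lipa, the acid lipase that frees cholesterol and fatty acids from lipoproteins, had 126 and 134 CPM in the controls and 105, 109.8 and 111 CPM with TGF-β1 (log2 fold change −0.26, adjusted p = 0.00111). Tpp1, a tripeptidyl peptidase, had 175 and 175 CPM in the controls and 151, 155 and 154 CPM with TGF-β1 (log2 fold change −0.19, adjusted p = 0.00122). Ppt1, which removes palmitate from proteins, had 71.4 and 76.97 CPM in the controls and 64.3, 68.3 and 63.5 CPM with TGF-β1 (log2 fold change −0.18, adjusted p = 0.0206), and its call was lost without control 2 (adjusted p = 0.191) or TGF-β1 replicate 1 (adjusted p = 0.0672). None of the 3 overlapped between groups.

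Psap encodes prosaposin, the precursor of the saposins that present sphingolipids to hydrolases, and was the second most abundant of the 38 genes per kb, at 425 ± 3.46 (n = 2) and 414 ± 5.56 CPM per kb (n = 3) in controls and with TGF-β1. It had 1119 and 1132 CPM in the controls and 1101, 1080.3 and 1109 CPM with TGF-β1 (log2 fold change −0.04, adjusted p = 0.203), a difference that did not pass. Npc2, the soluble cholesterol carrier, fell, with 329.6 and 361 CPM in the controls and 296, 293 and 295 CPM with TGF-β1 (log2 fold change −0.23, adjusted p = 0.00109). Control 2 was the highest of its 5 libraries and all treated libraries lay below control 1.

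Membrane proteins of the lysosome mostly did not pass the test. Of 5, 1 fell (20%, against 24.6% of all genes of at least 10 CPM) and 4 did not pass. Lamp1, the abundant glycoprotein of the limiting membrane, had 668 and 671 CPM in the controls and 673, 681 and 691 CPM with TGF-β1 (log2 fold change 0.03, adjusted p = 0.417). Lamp2, which also serves chaperone-mediated autophagy, had 333 and 344 CPM in the controls and 324, 319.8 and 319 CPM with TGF-β1 (log2 fold change −0.08, adjusted p = 0.0538). In the fit these were 102% and 94.8% of the control level. Scarb2 (LIMP-2), the receptor that carries β-glucocerebrosidase to lysosomes, fell, with 433 and 437 CPM in the controls and 385, 385 and 384 CPM with TGF-β1 (log2 fold change −0.18, SE 0.025, adjusted p = 3.54e-04). Npc1, the transporter that exports cholesterol, had 115 and 117 CPM in the controls and 121, 125 and 135 CPM with TGF-β1 (log2 fold change 0.13, adjusted p = 0.0667), the highest in replicate 3; without TGF-β1 replicate 1 it passed as higher (log2 fold change 0.16, adjusted p = 0.0338). Mcoln1, the calcium channel TRPML1, had 31.5 and 29.9 CPM in the controls and 30.1, 31.99 and 31.5 CPM with TGF-β1 (log2 fold change 0.02, adjusted p = 0.792), with overlapping groups. With scaling by library totals, which lowered the median of all genes by 0.10 in log2, Lamp1 turned negative and passed as lower (−0.074, adjusted p = 0.0303), Lamp2 passed as lower (−0.18, adjusted p = 0.000895), and Mcoln1 and Man2b1 turned negative without passing (−0.076 and −0.020).

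The tagging enzyme and the transcriptional regulator both fell. Gnptab encodes the subunits of the phosphotransferase that begins the mannose 6-phosphate tag, and it had 97.7 and 101 CPM in the controls and 72.8, 78.9 and 76.8 CPM with TGF-β1 (log2 fold change −0.39, SE 0.048, adjusted p = 1.64e-04). Tfeb encodes a transcription factor that activates lysosomal and autophagy genes when it enters the nucleus, a step set mainly by its phosphorylation, which RNA does not show (ENSMUSG00000023990, chr17:47737030-47792419). It had 19.7 and 20.4 CPM in the controls and 7.09, 8.50 and 6.72 CPM with TGF-β1 (log2 fold change −1.43, SE 0.113, adjusted p = 7.64e-06), a 2.69-fold decrease and the second largest of the 38. The highest treated library, replicate 2, lay well under either control.

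Other genes of the lysosome were counted in lists, and those named as rising or falling had an adjusted p under 0.05. For comparison, 21.3% of all genes tested were higher and 23.2% lower (31.2% and 24.6% at 10 CPM or more). The relatives of Tfeb and the nutrient sensors around it showed no shared direction. Of 19 tested genes, 4 rose, 4 fell (21.1% each, near the shares over all genes tested) and 11 did not pass. Their median log2 fold change was 0.02. Mitf, a relative of Tfeb at low level, fell from a mean of 7.31 ± 0.562 CPM to one of 4.24 ± 0.128 (log2 fold change −0.79), while Tfe3, another relative, named after its value was seen, had 82.7 ± 5.38 and 90.7 ± 6.44 CPM (log2 fold change 0.13, adjusted p = 0.132). Rheb, the GTPase that activates mTORC1 on the lysosome, rose from a mean of 112 ± 2.58 CPM to one of 179.6 ± 3.33 (log2 fold change 0.69), and Lamtor4, part of the Ragulator scaffold, fell from a mean of 23.98 ± 0.761 CPM to one of 17.5 ± 1.77 (log2 fold change −0.45).

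Lysosomal hydrolases and cofactors outside the 38 went both ways. Of 34 tested, 8 rose (23.5%), 12 fell (35.3%) and 14 did not pass, with a median of 0.00. Acp5, the tartrate-resistant acid phosphatase, rose from a mean of 19.9 ± 0.129 CPM to one of 58.4 ± 1.5 (log2 fold change 1.56), Siae, a sialic acid esterase, fell from a mean of 26.1 ± 3.56 CPM to one of 15.99 ± 2.38 (log2 fold change −0.71), and Gm2a, the GM2 activator that works with β-hexosaminidase, fell from a mean of 118 ± 1.36 CPM to one of 76.1 ± 0.977 (log2 fold change −0.63). This list held 4 further cathepsins, named after their values were seen. Those tested were Ctss, a macrophage and antigen-presenting cell cathepsin that rose from a mean of 93.9 ± 1.90 CPM to one of 137 ± 2.93 (log2 fold change 0.55), and Ctsw, known from cytotoxic lymphocytes, which rose from a mean of 0.710 ± 0.0288 CPM to one of 5.81 ± 0.286 (log2 fold change 3.03). Ctse, at no more than 0.190 CPM in any library, and Ctsg, with 0 counts, were too low to test.

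Of 25 further lysosomal membrane proteins and transporters tested, 5 rose (20%), 10 fell (40%) and 10 did not pass, with a median of −0.15. Laptm4b fell from a mean of 70.8 ± 0.940 CPM to one of 38.6 ± 1.05 (log2 fold change −0.88), Cln3, mutated in juvenile Batten disease, fell from a mean of 14.4 ± 0.163 CPM to one of 7.90 ± 1.55 (log2 fold change −0.87), and the TPC channel gene Tpcn1 fell from a mean of 62.5 ± 1.23 CPM to one of 35.05 ± 2.22 (log2 fold change −0.84). The proton pump list had 7 higher (33.3%), 5 lower (23.8%) and 9 without a call among 21, and a median of 0.03. Its subunits Atp6v1g1 and Tcirg1 rose from a mean of 73.8 ± 2.51 CPM to one of 95.03 ± 6.03 and from a mean of 87.3 ± 4.13 CPM to one of 108 ± 2.97 (log2 fold changes 0.37 and 0.30), whereas Atp6v0a1 fell from a mean of 94.8 ± 4.94 CPM to one of 51.8 ± 3.13 (log2 fold change −0.87). Atp6v0e2, at the edge of the rule for naming genes and named after its value was seen, fell from a mean of 10.5 ± 0.274 CPM to one of 1.31 ± 0.0760 (log2 fold change −3.01).

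Of 12 receptors and sorting factors for lysosomal enzymes, 1 rose (8.33%), 3 fell (25%) and 8 did not pass. Sortilin (Sort1), a sorting receptor for prosaposin among others, fell from a mean of 117 ± 2.65 CPM to one of 68.1 ± 1.85 (log2 fold change −0.78), the retromer subunit Vps26a fell from a mean of 77.3 ± 1.44 CPM to one of 59.5 ± 0.930 (log2 fold change −0.38), and Lrp1, an endocytic receptor, rose from a mean of 2106 ± 46.03 CPM to one of 2646 ± 31.6 (log2 fold change 0.33). Of 35 autophagy genes, 10 rose (28.6%), 5 fell (14.3%) and 20 did not pass, with a median of 0.04. The receptor genes Optn and Sqstm1 differed, Optn falling from a mean of 8.89 ± 0.339 CPM to one of 5.29 ± 0.802 (log2 fold change −0.75) and Sqstm1 rising from a mean of 311 ± 10.98 CPM to one of 462 ± 20.1 (log2 fold change 0.57), and Gabarapl1 fell from a mean of 247 ± 4.57 CPM to one of 160.1 ± 14.2 (log2 fold change −0.63).

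Macrophage and leukocyte markers were mostly lower with TGF-β1. Of the 20, 13 fell (65%), 2 rose (10%, Ctss and Ptprc) and 5 did not pass, with a median log2 fold change of −0.25. Among all genes tested, 23.2% were lower and 21.3% were higher. Lyz2, lysozyme and the most abundant marker, had 2029 and 1959.5 CPM in the controls and 1133, 1128 and 1149.9 CPM with TGF-β1 (log2 fold change −0.81, adjusted p = 6.25e-09). Without Lyz2 the sums of the other 19 were 1346 and 1348 CPM in the controls and 1152 to 1164 CPM with TGF-β1. The markers did not move as one: the complement gene C1qa had 120.2 and 123 CPM in the controls and 119.7, 119 and 119.8 CPM with TGF-β1 (log2 fold change −0.03, not past the threshold), Csf1r, the receptor for macrophage colony-stimulating factor, had 163 and 163 CPM in the controls and 136, 139.98 and 149 CPM with TGF-β1 (log2 fold change −0.20), Cd68, itself a lysosomal membrane protein, had 62.9 and 63.2 CPM in the controls and 36.5, 40.4 and 38.99 CPM with TGF-β1 (log2 fold change −0.71), and the scavenger receptor gene Marco had 17.4 and 19.5 CPM in the controls and 3.33, 3.05 and 3.85 CPM with TGF-β1 (log2 fold change −2.44). C1qa, Csf1r, Cd68 and Marco were named after their values were seen. The part of these cells, and of the mesothelial cells whose markers fell, in the lysosomal decreases was not tested.

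**Figure D4:**
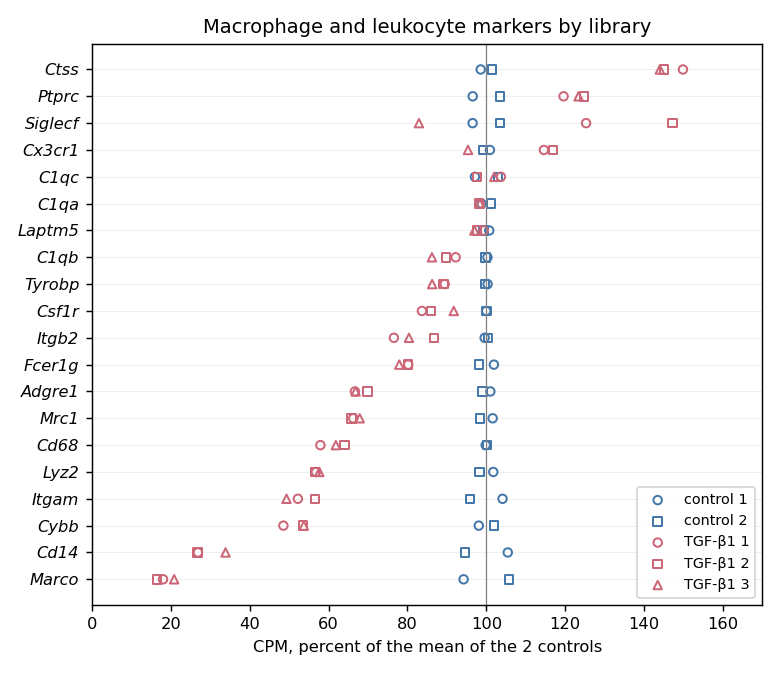
CPM of the 20 macrophage and leukocyte markers in each library, as a percent of the mean of the 2 controls (blue: controls, red: TGF-β1). The treated points of Ctss and Ptprc lie to the right of both controls, those of C1qc, C1qa and Laptm5 lie near 100, and those of Cd14 and Marco lie farthest left.

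Counting can blur some of these values. The exons of Ppt1, Idua, Npc1, Ctsz and Glb1 overlap those of another gene counted at more than 0.1 of their own level: Cap1 at 8.14 times Ppt1, Dgkq at 0.971 times Idua, Rmc1 at 0.306 times Npc1, Nelfcd at 0.135 times Ctsz and Tmppe at 0.118 times Glb1. The shared stretches were 129, 124, 511, 10 and 165 bases. Rmc1 itself rose (log2 fold change 0.30, adjusted p = 0.00169 by edgeR), the direction of the change in Npc1 that did not pass. Its part in the value of Npc1 was not tested. Cap1, Dgkq, Nelfcd and Tmppe did not pass. All but Tmppe lie on the opposite strand, and whether strand was used in counting is not given in the sources used here, so these 5 values are uncertain. Near-identical copies outside such overlaps were found for Mcoln1 alone in this search, a stretch of 400 bases at 95% identity in A230057D06Rik, a gene at 0.424 CPM.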

How the data were processed

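The deposited table gives unscaled counts for 55335 Ensembl IDs in 5 libraries. Per the submitters' processing notes, STAR 2.5.3a, StringTie 1.3.1c and the mouse build mm10 were used; how reads were counted, with which strand setting and annotation, is not given in the sources used here. Per the labels' protocols, libraries were strand-specific and made from mRNA. Columns were matched to samples by title.

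Symbols, coordinates (1-based) and transcript lengths came from GENCODE M21 (GRCm38, called mm10), which held 55154 of the IDs; length was that of the longest coding transcript with APPRIS and CCDS tags and support level 1. Genes were filtered with filterByExpr and scaled with TMM, and 16380 entered edgeR's quasi-likelihood test, two-sided, with group as the only term and p-values adjusted by Benjamini-Hochberg; the SE is the fold change over the square root of F. As a check of the code, the fit was also run on simulated counts with few genes changed, which does not test the scaling of these data. Alternatives were other scalings, filters and tests, a block for the replicate number, and fits without each library in turn; a lone control took its spread from the TGF-β1 libraries. The members and lists were chosen with earlier results of these data known. All 38 members were named, with up to 3 genes per related list (adjusted p under 0.05, mean of at least 5 CPM, largest change first, else the most abundant), the most abundant gene per marker list, and Ccn2 and Acta2 as the treatment check; 1 further gene is not reported here. Exon overlaps were read from GENCODE M21, and copies were sought with BLAST 2.17.0 over at least 200 bases at 95% identity or more. Promoter windows were those of RefSeq, GRCm38.p6. Fits used edgeR 4.0.16, DESeq2 1.42.0 and limma 3.58.1 in R 4.3.3; tables and figures used matplotlib 3.10.9, numpy 2.4.6 and pandas 2.3.3 in Python 3.11.15.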

Additional observations from a re-analysis of the deposited data

How the results depend on the processing

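Of the 38 genes, 25 kept their direction and their call under every alternative run other than the test against a 1.5-fold change, among them 21 of the 25 that fell and all 4 that rose. Against a 1.5-fold change, 4 of the 38 were lower and 0 higher (cathepsins 2 and 0, glycosidases and sulfatases 1 and 0; all genes 1223 and 563). With library totals, 2325 of all genes were higher, and Lamp1 (−0.074, adjusted p = 0.0303), Mcoln1 (−0.076) and Man2b1 (−0.020) reversed, while Ctsz, Idua, Psap and Lamp2 passed as lower; that scaling moved the median of all genes by −0.10. Lamp2 also passed with upper-quartile scaling, DESeq2 and limma-voom, and Npc1 passed as higher without TGF-β1 replicate 1. Leaving out 1 library, Ctsf ran from −0.15 (without control 2) to 0.0015 (without control 1) and Mcoln1 from −0.013 (without control 2) to 0.061 (without control 1), none of them called. Leaving out 1 library at a time gave 21 to 25 lower and 4 to 5 higher of the 38, 5 and 3 of the cathepsins, 9 to 12 and 1 of the glycosidases and sulfatases, and 2813 to 3881 and 2620 to 3623 of all genes. The gap between the medians of the cathepsins and of the glycosidases and sulfatases ranged over 0.12 to 0.18, lowest without control 2. Calls of Gla, Manba, Arsb and Ppt1 were lost without 1 library or another, the largest adjusted p being 0.255 for Gla without control 2, and Arsb was lost without control 2 (adjusted p = 0.0632). Same-numbered libraries deviated from their group means with correlations of 0.0159 and 0.0161, so the numbers were not taken to pair the samples. With the replicate number as a block, all 38 genes kept their direction and call (25 lower and 4 higher). TGF-β1 replicate 3 has no control of its number and does not inform those fold changes. The block fit thus nearly repeats the run without that library (Ctsc at 0.545 in both) and is no separate check. Each of the 38 had at least 260 counts in every library. The part of counting error in the SEs was not measured, and precision rests on 2 and 3 libraries. The cause of these changes was not tested.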

Other observations

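The cathepsin genes outside the lists above were silent. The count table held 9 more protein-coding genes with cathepsin symbols, Cts3, Cts6, Cts7, Cts8, Ctsj, Ctsll3, Ctsm, Ctsq and Ctsr, most of them known from mouse placenta, and each had 0 counts in all 5 libraries.

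The genes that overlap Ctsa and Ctsb on the opposite strand were lower too, as were 23.2% of all genes tested, and are named after their values were seen. Other opposite-strand partners did not fall: Tmem202, which overlaps Hexa, did not pass (log2 fold change 0.05, adjusted p = 0.860 by edgeR), nor did Cap1 and Dgkq, and Rmc1 rose. Neurl2, which overlaps Ctsa, had means of 4.02 CPM in the controls and 1.96 CPM with TGF-β1 (log2 fold change −1.03, adjusted p = 0.00179 by edgeR). Pltp, the phospholipid transfer protein gene that overlaps Ctsa on the other strand, had means of 8.55 CPM in the controls and 4.11 CPM with TGF-β1 (log2 fold change −1.06, adjusted p = 0.000344 by edgeR). Fdft1, the squalene synthase gene that overlaps Ctsb by 774 bases on the other strand, had means of 56.7 and 40.3 CPM (log2 fold change −0.49, adjusted p = 0.000339). Neurl2, Pltp and Fdft1 are scarce beside the cathepsin they overlap, at 0.0117, 0.0247 and 0.041 of its level. The strand setting of the counting is not given, and whether reads of Ctsa or Ctsb entered their counts was not tested.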
